A study of Mus musculus with 3 samples.

Results

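The cells described here are 97 barcodes that carried transcripts of arterial endothelium and that occurred, with the same barcode string, in all 3 deposited libraries of an intestinal organoid study. A barcode is the short DNA tag of 1 droplet, which usually holds 1 cell, and a unique molecular identifier (UMI) tags 1 captured RNA molecule. Members were selected on their counts in the WT matrix. They had to have at most 20% of UMIs from mitochondrial genes, at least 2 UMIs of Gja5, Gja4, Bmx and Hey1 together, and 0 UMIs of Prox1, Mmrn1, Ackr1 and Selp. The rule took 97 of 3145 shared barcodes within the mitochondrial limit, or 3.08% (95% exact binomial interval 2.51 to 3.75%, counting error only). All shared barcodes numbered 3195, and the 3 libraries together held 34185 barcodes.

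The labels describe small intestinal organoids, which are cultured epithelium, from C57BL/6 mice of 7 to 8 weeks in 3 genotypes with 1 library each. The WT library came from a wild-type mouse. LApc stands for floxed Apc (Apc fl/fl) with Lgr5-CreERT2, and LApcL adds floxed Lef1 (Lef1 fl/fl) to both. This Cre is driven by Lgr5, so deletion is aimed at Lgr5+ stem cells, and tamoxifen was given as 2 doses of 2 mg. The labels give 21, 29 and 21 days after tamoxifen, organoid passage 3 and day 6 of culture, and a 20 µm mesh for WT, LApc and LApcL. Since the same barcode strings stood in all 3 libraries, no genotype could be given to the 97 barcodes, and the 3 matrices are not replicates of one another for them. Organoids of this kind hold epithelium, whereas epithelial markers had only 5 UMIs in 3 of the 97 barcodes. Levels below come from the WT matrix unless another is named, and no difference was tested, because all barcodes come from 1 library per genotype.

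Arteries carry blood away from the heart, and their endothelium has a gene program set apart from that of capillaries, veins and lymphatics. Vegf and Notch signalling act early in that program: Notch receptors and the ligand Dll4 act on neighbouring cells, and Hey and Hes genes are targets of the pathway. Gja5 and Gja4 encode the connexins of arterial gap junctions, Bmx encodes a kinase found in arterial endothelium, and Hey1 encodes a Notch target. Prox1 and Mmrn1 mark lymphatic endothelium, and Ackr1 and Selp mark venules.

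The barcode strings carry the link between the libraries, so those of 6 members are given, 2 from each of 3 sets that are explained further on. In the first and second sets no other barcode had more UMIs of the 4 arterial genes than the pair shown, though some had as many as B or D. The third pair was taken by UMIs of lymphatic genes. The first pair held Bmx or Gja5.
Barcode A: tccatcgaggcgaact
Barcode B: ctggcagcagacctat
The second pair held Gja4 or Hey1 only.
Barcode C: atcaggtcactgcttc
Barcode D: atcgtagcacagacga
The third pair also carried lymphatic transcripts.
Barcode E: gacccagtcaagatag
Barcode F: tacaggtgtgcgctca
Barcode A held 2063 UMIs in the WT matrix, 1447 in the LApc matrix and 1547 in the LApcL matrix. It had 1 Gja5, 1 Gja4, 1 Bmx and 2 Hey1 UMIs in WT, the only member with all 4 genes. In LApc it had 2 Bmx UMIs, and in LApcL 1 each of Gja5, Gja4 and Bmx. So the same string carried arterial transcripts in each of the 3 matrices. Barcode C held 6234, 4186 and 4701 UMIs in the WT, LApc and LApcL matrices. Its 20, 24 and 20 UMIs of Igfbp3, a secreted binding protein of insulin-like growth factors, were close in all 3. Barcode E held 26, 15 and 19 UMIs of Nts, the peptide neurotensin, and no arterial rule gene outside the WT matrix, where it had 2 Bmx UMIs.

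The 97 barcodes held 233097 UMIs in the WT matrix, with a median of 2192 and a range of 824 to 7082. The other 3048 shared barcodes held 7887030 UMIs, with a median of 2203.5 and a range of 677 to 13302, so median depth per barcode was alike. Levels are given as CPM, UMIs of a gene per 1e6 UMIs summed over a group, and log2 ratios as log2 of CPM + 1 against CPM + 1. Intervals are exact at 95% and cover counting error only. Against the other shared barcodes, 3164 genes had a mean of both CPMs of at least 50. Of these, 125 were at least 2-fold higher in the members (3.95%) and 164 at least 2-fold lower (5.18%). The median log2 ratio over these genes was 0.08.

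The members were also set beside 3 classes of shared barcodes, likewise selected on UMIs of a few genes. The capillary class of 1302 barcodes had at least 2 UMIs of Cd300lg, Gpihbp1, Rgcc, Car4 and Plvap, none of the 4 excluded genes and at most 1 arterial UMI. The venous class of 283 had at least 2 UMIs of Ackr1 and Selp and none of Prox1 or Mmrn1. The lymphatic class of 877 had at least 2 UMIs of Prox1 and Mmrn1. Median UMIs per barcode were 1755.5, 3640 and 3090, so the capillary class was shallower than the members and the other classes were deeper. Against the capillary class, 59 of 3080 genes were at least 2-fold higher in the members (1.92%) and 45 at least 2-fold lower (1.46%), fewer in both directions than against all other shared barcodes.

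The rule rested on few molecules. Of the 97 members, 54 had exactly 2 UMIs of the 4 arterial genes, 32 had 3, 8 had 4, 2 had 5 and 1 had 6. In 54 members all of them came from a single gene, in 39 from 2 genes and in 4 from 3 or more. Gja4 gave 127 UMIs in 67 members, Hey1 75 in 45, Bmx 42 in 25 and Gja5 8 in 8. These counts describe the choice and are no finding. On the mouse build mm10 (GENCODE vM21), Gja5 lies on chromosome 3 from 96904693 to 97077416, and Hey1 on chromosome 3 from 8663359 to 8667256. Gja4 lies on chromosome 4 from 127311421 to 127314039, and Bmx on chromosome X from 164192842 to 164258193. UMIs were counted per whole gene, so exon and intron reads cannot be told apart.

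The excluded genes decided much of the set. Among shared barcodes within the mitochondrial limit, 211 had at least 2 arterial UMIs, and 114 of them (54.0%) were left out for a UMI of an excluded gene. Of those 114, 93 had Prox1 and 94 had Mmrn1, and 78 had Bmx. In the lymphatic class Bmx stood at 77.4 CPM and Gja4 at 59.7 CPM, against 3.71 and 30.5 CPM in the capillary class, where at most 1 arterial UMI was allowed. Bmx and Gja4 were thus found in barcodes of lymphatic type as well, whereas Hey1 stood at 4.14 CPM in the lymphatic class.

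At the edge of the rule, the 54 members with 2 arterial UMIs were set beside 191 barcodes with 1 arterial UMI and none of the excluded genes. Sema3g, a secreted semaphorin of arterial endothelium, stood at 297 CPM just inside and 200 CPM just outside. Igfbp3 stood at 1181 and 699 CPM, and Cxcl12, a chemokine, at 1205 and 1282 CPM. In 1336 barcodes with 0 UMIs of all 8 genes, Sema3g stood at 47.8 CPM and Igfbp3 at 372 CPM. For Sox17 the levels were 297, 175 and 178 CPM inside, just outside and with 0 UMIs. Sema3g and Igfbp3 thus stood lower just outside and lower again at 0 UMIs, whereas Sox17 stood alike just outside and at 0 UMIs. In the 43 members with 3 or more arterial UMIs, Sema3g stood at 247 CPM, Igfbp3 at 1187 and Sox17 at 256. Sema3g and Sox17 were thus no higher there than at 2 UMIs, and Igfbp3 stood alike.

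The members were described by 22 arterial markers that the rule did not use, from a list chosen with earlier results of these data known. List genes needed 10 UMIs in both groups together, a looser filter than the mean CPM of 50 behind the 3.95%. Of the 22, 17 were at least 2-fold higher in the members than in the other shared barcodes and 1 was at least 2-fold lower, with a median log2 ratio of 1.59. Under the mean CPM of 50, 12 of 17 were at least 2-fold higher, beside 3.95% of all tested genes, and the median was 1.35, beside 0.08. Against the capillary class 12 of the 22 were at least 2-fold higher and none at least 2-fold lower, with a median of 1.11. Under the mean CPM of 50 these were 8 of 16, beside 1.92% of tested genes. Some markers passed that filter only through their level in the members, so these counts are a description. Most of the 22 markers thus stood higher in the members than in the others, which is no test of the label. Lymphatic genes that went against the label were carried by 10 of the 97 barcodes, described further on. In 62 others, also described there, capillary genes stood near the level of the capillary class.

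**Figure D1:**
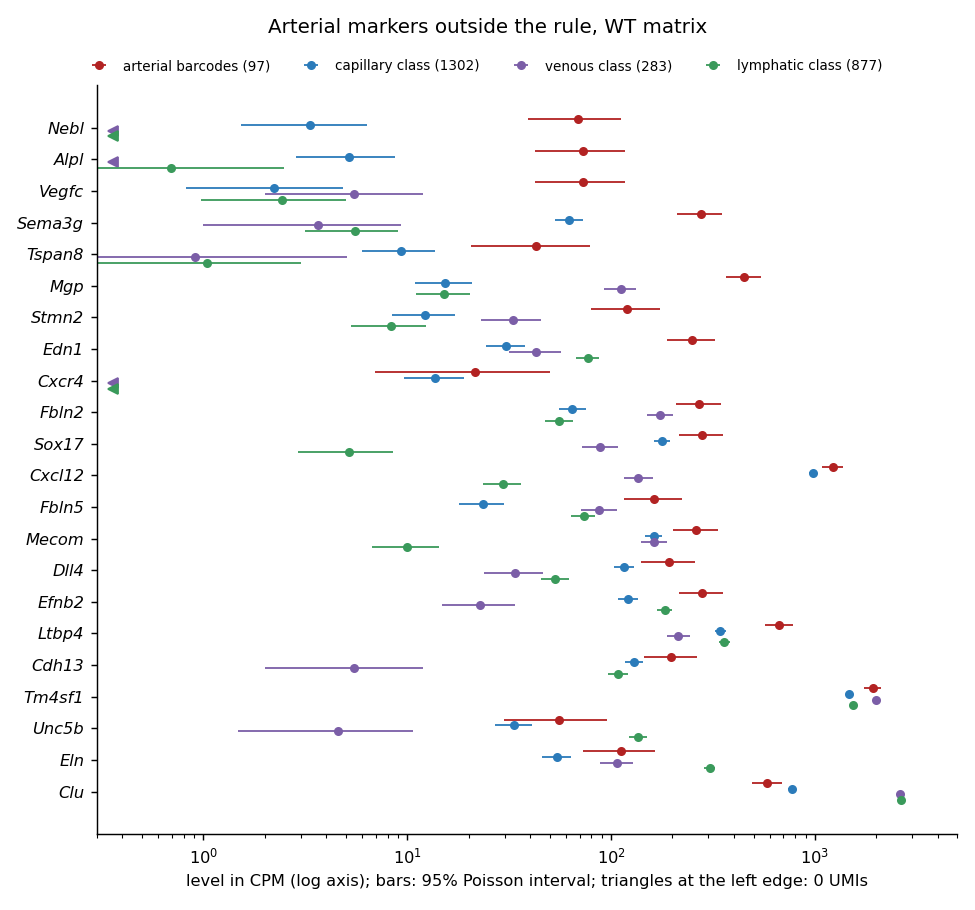
Levels of the 22 arterial markers outside the rule in CPM on a log axis, for the 97 arterial barcodes (red) and the capillary (blue), venous (purple) and lymphatic (green) classes. Points are summed UMIs, bars are 95% Poisson intervals, and triangles at the left edge mark 0 UMIs. For genes from Nebl down to Cdh13 the arterial barcodes had the highest level of the 4 groups, whereas Clu, at the bottom, was lowest in them with 583 CPM.

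Sema3g and the ephrin genes Efnb2 and Efna1 were higher in the members. Sema3g (chromosome 14, 31217860 to 31230352) had 64 UMIs in 34 of the 97 members, 274.6 CPM (95% interval 211 to 351). It stood at 29.7 CPM in the other shared barcodes, 62.4 in the capillary class, 3.65 in the venous class and 5.53 in the lymphatic class. The log2 ratio was 3.17 (2.75 to 3.57) against the others and 2.12 (1.68 to 2.54) against the capillary class. Among genes outside the rule with a mean CPM of at least 50, the ratio of Sema3g against the others was the highest in the main setting. With a minimum of 3 arterial UMIs Ssu2 (3.53) stood above Sema3g (2.83), and with 2 different arterial genes Ccnd2 (3.42) stood above it (3.08). Efnb2, the ephrin ligand of arteries, stood at 279 CPM against 130 in the others and 121 in the capillary class. Efna1, another ephrin, stood at 180.2 CPM against 52.6 and 79.1. The lymphatic class had more Efnb2 (183 CPM) than the capillary class, so Efnb2 set members apart from lymphatic barcodes by less than Sema3g did. Unc5b, a netrin receptor, was no higher in the members (log2 ratio -0.29, interval -1.19 to 0.49), although its ratio was 0.98 against barcodes without Prox1 or Mmrn1.

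Among 19 guidance genes with enough counts, 4 were at least 2-fold higher and 4 at least 2-fold lower than in the others, and under a mean CPM of 50, 4 and 1 of 13, beside 3.95% and 5.18%. Robo1, a Slit receptor, had 0 UMIs in the members and 27.5 CPM in the others, at least 2.14-fold lower by a floor of 3 counts over the group. Sema3a, a repulsive cue, stood at 8.58 CPM in the members and 179 CPM in the lymphatic class. The list's median log2 ratio was 0.13, and 0.60 under a mean CPM of 50, so it hung on the filter.

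The Notch pathway was higher in part than in the other shared barcodes. Dll4, the arterial Notch ligand, had 45 UMIs in 28 members, 193 CPM, against 78.7 in the others and 116 in the capillary class. Jag2, a second ligand, stood at 116 CPM against 38.5 and 70.2. Notch4, an endothelial receptor, stood at 107 CPM against 30.3 and 62.0. Nrarp, a feedback target of Notch, stood at 103 CPM against 37.9 and 69.5. Their log2 ratios against the others were 1.28, 1.56, 1.79 and 1.42, and every interval lay above 0. The ratio of Dll4 was 0.21 with a minimum of 3 arterial UMIs, that of Notch4 was 0.73 after thinning, and that of Jag2 was 0.58 (-0.42 to 1.43) in LApc counts.

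Other Notch genes differed less or had few counts. Hes1, a widely used Notch target, stood at 330 CPM in the members and 361 CPM in the others (log2 ratio -0.13, interval -0.47 to 0.20). Notch1 stood at 249 CPM against 165 CPM. Dll1, a ligand, had 2 UMIs in the members (log2 ratio -1.91, interval -4.15 to -0.16). Hey2, a relative of Hey1, had only 2 UMIs (log2 ratio 2.25, interval -0.10 to 3.99), and Hes5 and Heyl had 0. Of 18 Notch genes with enough counts, 6 were at least 2-fold higher and 1 at least 2-fold lower than in the others, with a median of 0.33. Under a mean CPM of 50, 4 of 9 were at least 2-fold higher and 0 lower, beside 3.95% and 5.18% of all tested genes. Against the capillary class, under that filter, 1 of 9 was at least 2-fold higher and 1 lower, beside 1.92% and 1.46%.

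Notch acts on DNA through RBPJ, whose core motif is TGGGAA. RefSeq promoter windows (GRCm38.p6, 250 bases before to 50 after a start site) were searched for it on both strands. It occurred in 8397 of 32851 windows (25.6%), and in 5 of 27 windows (18.5%) of the 19 arterial genes matched, out of 26 arterial genes in all. By gene, 5 of the 19 (26.3%) held it in at least 1 window, as did 7651 of 27025 genes in all (28.3%). Upstream stretches of the rule gene Bmx and of Cxcl12, both high in the members, are shown with the motif in capitals, 5′ to 3′ on the strand of the gene.
Bmx, chrX:164258194-164258443, minus strand: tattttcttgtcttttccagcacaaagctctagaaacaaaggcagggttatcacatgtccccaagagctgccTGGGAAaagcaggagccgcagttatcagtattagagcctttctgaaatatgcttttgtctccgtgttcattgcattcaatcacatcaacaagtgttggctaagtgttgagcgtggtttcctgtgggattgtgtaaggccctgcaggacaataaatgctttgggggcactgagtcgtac
Cxcl12, chr6:117168285-117168534, plus strand: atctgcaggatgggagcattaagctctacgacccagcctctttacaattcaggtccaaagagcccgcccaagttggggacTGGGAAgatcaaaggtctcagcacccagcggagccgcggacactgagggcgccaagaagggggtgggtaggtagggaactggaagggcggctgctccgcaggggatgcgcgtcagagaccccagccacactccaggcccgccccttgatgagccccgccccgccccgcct
The motif began 178 bases before the start site in Bmx and 170 bases before it in Cxcl12. A match of letters is a description and not a binding site.

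Among transcription factors, the Sox genes differed from one another. Sox17, which acts in arterial specification, had 65 UMIs in 41 members, 279 CPM, against 89.6 CPM in the others, 179 in the capillary class and 5.18 in the lymphatic class. Sox18 stood at 262 CPM against 112 in the others, and Sox7 at 77.2 CPM against 106. Mecom, a zinc finger factor of arterial endothelium, stood at 262 CPM against 102. Nr2f2, which maintains venous and lymphatic identity, stood at 55.8 CPM in the members, 218 in the others, 53.5 in the capillary class and 417 in the lymphatic class. Foxc1 had 0 UMIs against 29.9 CPM in the others, at least 2.33-fold lower. Of 18 factors with enough counts, 3 were at least 2-fold higher and 2 at least 2-fold lower, with a median of 0.02. Under a mean CPM of 50, 3 of 12 were higher and 1 lower by that measure, beside 3.95% and 5.18%. Against the capillary class, under that filter, 0 of 12 were at least 2-fold higher and 0 lower, beside 1.92% and 1.46%.

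The chemokine Cxcl12, a ligand that guides leukocytes, was among the most abundant arterial markers. It had 285 UMIs in 75 members, 1223 CPM (1085 to 1373), against 415 in the others and 976 in the capillary class, so its log2 ratio fell from 1.56 to 0.33 when only capillary barcodes were compared. In the WT, LApc and LApcL matrices the members stood at 1223, 1197 and 1217 CPM. Its receptor Cxcr4 had 5 UMIs in 3 members, too few to place it. Of 13 chemokines and receptors, 3 were at least 2-fold higher and 4 at least 2-fold lower than in the others, and under a mean CPM of 50, 1 and 2 of 7, beside 3.95% and 5.18%.

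Edn1, Vegfc and Igfbp3, which encode secreted proteins, were higher in the members. Edn1, the vasoconstrictor endothelin, had 58 UMIs in 21 members, 249 CPM (189 to 322), against 57.8 in the others, 30.5 in the capillary class, 42.9 in the venous class and 76.7 in the lymphatic class. Vegfc, a ligand of lymphatic growth, had 17 UMIs in 10 members, 72.9 CPM, against 4.82 in the others and 2.23 in the capillary class. Igfbp3 (chromosome 11, 7206086 to 7213923) had 276 UMIs in 56 members, 1184 CPM, against 176, 418, 1.83 and 4.14 CPM in the others and the capillary, venous and lymphatic classes. Igfbp3 was thus shared with capillary barcodes and near 0 in the venous and lymphatic classes.

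Some other genes of vessel tone and clotting were lower in the members. F8, clotting factor VIII, stood at 42.9 CPM in the members and 1056 CPM in the lymphatic class. Vwf, the platelet adhesion protein, stood at 30.0 CPM in the members, 56.1 in the capillary class and 827 in the venous class. Of 17 such genes with enough counts, 1 was at least 2-fold higher than in the others, which was Edn1, and 5 were at least 2-fold lower. Their intervals lay above 0 for 4 genes and below 0 for 5, and the median log2 ratio was -0.08. Under a mean CPM of 50, 1 and 3 of 13 were at least 2-fold higher and lower, beside 3.95% and 5.18%.

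The elastic matrix of arteries was seen in single genes. Mgp, which limits calcification of vessel walls, had 104 UMIs, 446 CPM, against 66.6 CPM in the others, 111 in the venous class and 15.2 in the capillary class, with a log2 ratio of 4.78 (4.27 to 5.31) against that class. Among genes outside the rule with a mean CPM of at least 50, this was the highest ratio against the capillary class. All 104 UMIs came from 11 members, with 1 to 25 UMIs each. Mgp was detected in 11.3% of members and 14.8% of venous barcodes, and in 10.9% and 8.51% after thinning to 1000 UMIs, so its detection was shared with the venous class. With Bmx left out of the rule, the log2 ratio of Mgp against the others fell from 2.73 to 0.52, that of Edn1 from 2.09 to 1.13, that of Stmn2 from 2.47 to 1.29, that of Alpl from 3.80 to 2.28 and that of Ccnd2, a cyclin gene, from 2.95 to 1.72. Fbln5 and Fbln2, which assemble elastic fibres, stood at 163 and 270.3 CPM, against 23.4 and 64.6 in the capillary class. Ltbp4, which binds latent Tgf-beta, stood at 669 CPM against 344 in that class.

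Elastin itself, Eln, stood at 112 CPM in the members, 54.2 in the capillary class and 304 in the lymphatic class. Eln was thus 2-fold higher than in capillary barcodes and lower than in all other shared barcodes (log2 ratio -0.59, interval -1.21 to -0.04), but its ratio was 0.50 against barcodes without Prox1 or Mmrn1. The basement membrane collagens Col4a1 and Col4a2 did not set members apart from the capillary class (log2 ratios -0.15 and -0.16). Of 22 matrix genes with enough counts, 7 were at least 2-fold higher and 4 at least 2-fold lower than in the others, with a median of 0.55, and under a mean CPM of 50, 5 and 1 of 17, beside 3.95% and 5.18%.

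Tgf-beta and Bmp genes were higher in part than in the other shared barcodes. Tgfb2, a ligand, had 36 UMIs in 23 members, 154 CPM, against 34.2 in the others and 34.2 in the capillary class. Id1 and Id3, targets of Bmp signalling, stood at 558 and 815 CPM against 192 and 310 in the others, and at 379 and 503 in the capillary class. Smad7, an inhibitor of the pathway, stood at 189 CPM against 57.9 in the others. Bmp6, a ligand, had 8 UMIs in 5 members (log2 ratio 2.48, interval 1.25 to 3.53), and the coreceptor gene Tgfbr3 stood at 90.1 CPM against 245. Of 17 genes with enough counts, 6 were at least 2-fold higher and 1 at least 2-fold lower, with a median of 0.57, and under a mean CPM of 50, 4 and 1 of 13, beside 3.95% and 5.18%. Against the capillary class, under that filter, 1 of 13 was at least 2-fold higher and 0 lower, beside 1.92% and 1.46%.

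Genes with low counts filled the top of the marker list. Nebl, an actin-binding protein, had 16 UMIs in 11 members (log2 ratio 4.02, interval 3.10 to 4.85). Alpl, tissue alkaline phosphatase, had 17 UMIs in 11 members against 4.31 CPM in the others (log2 ratio 3.80). Stmn2, a tubulin-binding protein, had 28 UMIs in 14 members, 120.1 CPM, against 20.9. In the LApc matrix the members had 6 UMIs of Nebl, 4 of Alpl and 18 of Stmn2, and in the LApcL matrix 8, 5 and 16. Tspan8, a membrane protein, had 10 UMIs in the WT matrix, and its direction turned when the LApcL matrix was counted (log2 ratio -2.66). Clu, the secreted chaperone clusterin, was the list's exception at 583 CPM against 1899 in the others.

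Outside the lists, the genes with the highest log2 ratios against the others and a mean CPM of at least 50 were Ssu2 (2.99), Ccnd2 (2.95), Igfbp3 (2.74), Depp1 (2.63), Arl15, Msx1 (1.99), Ceacam1 (1.97) and Slc6a6 (1.81). Ccnd2 encodes a cyclin of the G1 phase, Msx1 a homeobox factor and Slc6a6 the taurine transporter. Slc6a6 had 96 UMIs in 39 members, 412 CPM, against 117 in the others and 215 in the capillary class. Mki67 and Top2a, genes of dividing cells, had 0 UMIs in the members. Of 10 cell cycle genes, none was at least 2-fold higher and 5 were at least 2-fold lower, but no interval lay below 0. Only 1 of them had a mean CPM of 50, and it was neither, beside 3.95% and 5.18% of all tested genes.

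Several capillary genes stood near their level in capillary barcodes. Gpihbp1, which carries lipoprotein lipase across capillary endothelium, stood at 541 CPM against 600 in the capillary class and 29.2 in the venous class. Rgcc, a cell cycle regulator of capillary endothelium, stood at 493 CPM against 551. Plvap, the diaphragm protein of fenestrae, stood at 1866 CPM against 2598. Cd36, a fatty acid receptor, stood at 395 CPM against 144, and Esm1, a gene of growing vessel tips, at 120.1 against 73.9. Gpihbp1, Rgcc and Plvap helped to choose the capillary class, so their levels there are set by that choice. The median log2 ratio of the capillary list was 0.43 against the others and -0.16 against the capillary class, with 4 of 16 and 1 of 15 genes at least 2-fold higher. Under a mean CPM of 50 these were 3 of 11, beside 3.95%, and 1 of 12, beside 1.92%.

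**Figure D2:**
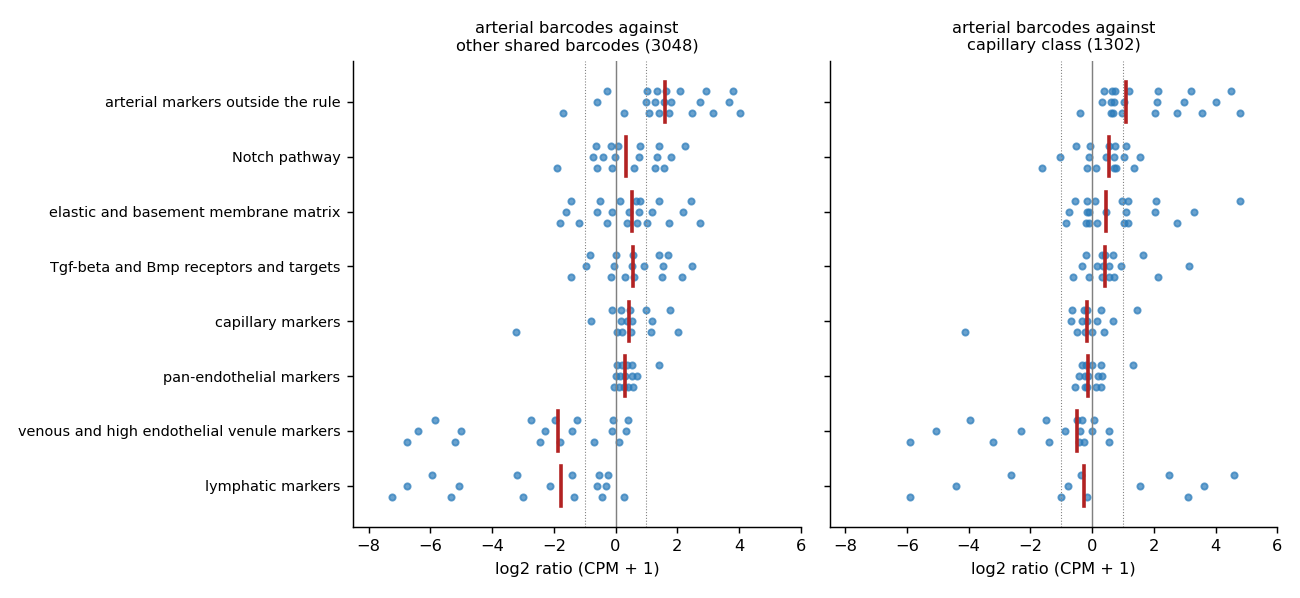
Log2 ratios of CPM + 1 for the genes of 8 lists, with the arterial barcodes set against the other shared barcodes (left) and against the capillary class (right). Each point is a gene with at least 10 UMIs, red bars are list medians, and dotted lines mark 2-fold. The arterial list had medians of 1.59 and 1.11, and the venous and lymphatic lists had medians of -1.87 and -1.77 on the left.

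Most pan-endothelial genes stood near their level in the other shared barcodes. Pecam1, the adhesion molecule of all endothelium, had 291 UMIs in 81 members, 1248 CPM, against 1073 in the others, and Cdh5, vascular cadherin, stood at 738 CPM against 610. Ly6c1 stood at 2355 CPM against 880 in the others, 1910 in the capillary class and 57.0 in the lymphatic class. Ly6c1 has close relatives in its gene family, so some of its reads may be shared. Of 15 genes on the pan-endothelial list 1 was at least 2-fold higher, which was Ly6c1, and none at least 2-fold lower, beside 3.95% and 5.18% of all tested genes. Ly6c1 was low in the lymphatic class, so by these counts it was not pan-endothelial.

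Venous genes outside the rule were low. Glycam1, a ligand of L-selectin in high endothelial venules, stood at 60.1 CPM in the members, 5179 in the others, 2035 in the capillary class and 21556 in the venous class. Ccl21a, a homing chemokine with near-identical copies and more than 1 row in the files, stood at 17.2 CPM against 1970 in the others. Sele, an inducible selectin, had 0 UMIs against 56.4 CPM, at least 4.38-fold lower, and Apoe, apolipoprotein E, stood at 944 CPM against 3288. Of 18 venous genes 12 were at least 2-fold lower than in the others and none at least 2-fold higher, and under a mean CPM of 50, 8 of 12 were lower, beside 5.18% of tested genes. Against the capillary class 7 of 17 were at least 2-fold lower, and under that filter 5 of 11, beside 1.46%. The rule itself kept out barcodes with Ackr1, Selp, Prox1 or Mmrn1, so low venous and lymphatic levels are not independent of it.

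Lymphatic genes outside the rule were low in most members. Lyve1, a hyaluronan receptor, stood at 17.2 CPM against 606 in the others and 1506 in the lymphatic class. Itga2b, an integrin, had 0 UMIs against 151 CPM in the others, at least 11.7-fold lower, and Marco, a scavenger receptor, stood at 8.58 CPM against 590. Of 16 lymphatic genes 10 were at least 2-fold lower than in the others and none at least 2-fold higher, and under a mean CPM of 50, 7 of 10 were lower, beside 5.18% of tested genes. Against barcodes without Prox1 or Mmrn1 the list's median log2 ratio turned from -1.77 to 0.41, and against the capillary class 5 of 12 genes were at least 2-fold higher and 3 lower. Under a mean CPM of 50 the latter were 3 and 1 of 5, beside 1.92% and 1.46%. Other genes of the list were not low. Nts stood at 240.2 CPM, Ackr4, a chemokine scavenger, at 172, and Stab2, a hyaluronan scavenger receptor, at 133, against 8.92, 13.0 and 14.5 CPM in the capillary class.

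These lymphatic transcripts came from 10 barcodes. Counting the lymphatic list without Ccl21a, 10 of the 97 members had at least 3 UMIs (10.3%, interval 5.06 to 18.1%), with 3 to 30 UMIs each and a median of 17. The limit of 3 UMIs was chosen after the values had been seen. The same limit was met by 3.00% of the capillary class and by 96.2% of the lymphatic class. In the 10 barcodes Nts stood at 2233 CPM, Ackr4 at 1624 and Stab2 at 1259. Nts had 55 of its 56 UMIs in the 10 barcodes, and Ackr4 and Stab2 had all of theirs there. These genes are on the list that picked the 10 barcodes, so their place there follows from the choice.

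The 10 lymphatic-marked barcodes lacked some blood endothelial genes and held others. Ly6c1 was detected in 1 of the 10, against 84 of the other 87 members. Cxcl12, Sox17, Flt1, a Vegf receptor, and Nrp1, a coreceptor of Vegf, had 0 UMIs in them. Plvap, in contrast, was detected in 9 of the 10 at 690.2 CPM and Kdr in 7 at 528 CPM, levels that stood at 914 and 734 CPM in the lymphatic class. Cldn5, a tight junction protein, stood at 2517 CPM in them against 1502 in the lymphatic class and 340 in the capillary class. Bgn, a matrix proteoglycan, stood at 934 CPM, with 23 of the 31 UMIs of all members. By the sums of their other genes these 10 barcodes thus resembled lymphatic rather than arterial endothelium. The barcode with Hey1 was mixed. It held 2 Ly6c1, 4 Cd300lg and 2 Igfbp3 UMIs and 0 of Cldn5 and Nts, beside 4 Ackr4 and 3 Stab2 UMIs.

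Excluded genes were found for the 10 barcodes in the other matrices. In the LApc or LApcL matrix 8 of the 10 had a UMI of Prox1, Mmrn1, Ackr1 or Selp, against 5 of the other 87. Prox1 had 0, 2 and 7 UMIs in the 10 barcodes in the WT, LApc and LApcL matrices, and Mmrn1 had 0, 3 and 6. In the WT matrix the rule's genes in these barcodes were Gja4 in 6, Bmx in 3 and Hey1 in 1, each as the only arterial gene. None of the 43 members with 2 or more different arterial genes in WT was lymphatic-marked. In the other matrices this differed for barcode F of the lymphatic-marked set. It had 1 UMI each of Gja4, Bmx and Hey1 in LApc, and 1 Gja4 and 2 Bmx UMIs in LApcL. Without the 10 barcodes the median log2 ratio went from -1.77 to -5.32 for the lymphatic list, from -1.87 to -2.34 for the venous list and from 1.59 to 1.75 for the arterial list. The 10 were picked by UMIs of the lymphatic list, so the fall of that list follows from the choice. Genes at least 2-fold higher went from 125 to 160, and genes at least 2-fold lower from 164 to 209.

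**Figure D3:**
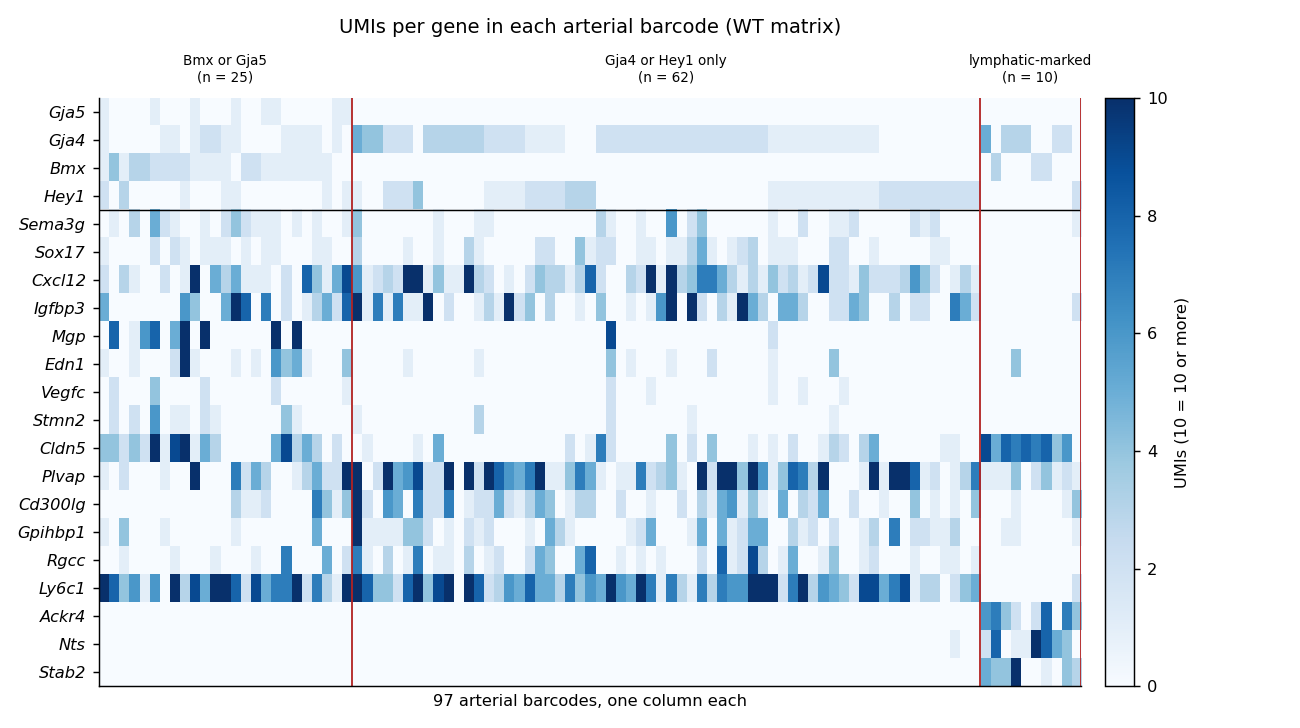
UMIs per gene in each of the 97 arterial barcodes in the WT matrix, one column per barcode, with darker blue for more UMIs and all counts of 10 or more in the darkest. Red lines part the 25 barcodes with Bmx or Gja5, the 62 with Gja4 or Hey1 only and the 10 lymphatic-marked ones, and the first 4 rows are the genes of the rule. Ackr4, Nts and Stab2, which helped to pick the last set, were found almost only in it, and Ly6c1 was found in 1 barcode there.

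The other 87 members were of 2 kinds by the genes that chose them. In 25 Bmx or Gja5 was detected, and in 62 only Gja4 or Hey1. This split was made after values had been seen and gets no test. The 25 held 57652 UMIs, with a median of 1898 per barcode, and the 62 held 150814, with a median of 2264.5. Of 1583 genes with a mean CPM of at least 100, 144 were at least 2-fold higher and 75 at least 2-fold lower in the 25. At these depths 1 UMI is worth 17.3 CPM in the 25 and 6.63 CPM in the 62.

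Some matrix genes were higher in the 25 barcodes with Bmx or Gja5, and others were higher in the 62. Mgp had 93 UMIs in 9 of the 25, 1613 CPM (1302 to 1976), against 11 UMIs in 2 of the 62, 72.9 CPM (36.4 to 131). In the WT, LApc and LApcL matrices Mgp stood at 1613, 1184 and 1462 CPM in the 25, and at 72.9, 88.5 and 90.3 CPM in the 62. Edn1 stood at 676, 541 and 566 CPM in the 25, and at 99.5, 88.5 and 108 CPM in the 62. Mgp UMIs came from few barcodes, up to 25 from 1 barcode, which the counting intervals do not cover. Most Edn1, Vegfc and Stmn2 UMIs of the 25 in the WT matrix came from the same 9 barcodes. Vegfc had 11 UMIs in 5 of the 25 and 6 UMIs in 5 of the 62. It stood at 191, 154 and 118 CPM in the 25 and at 39.8, 49.2 and 54.2 CPM in the 62 in the WT, LApc and LApcL matrices, so the gap was smaller in LApc and LApcL, where the intervals overlapped. In the WT matrix Stmn2 stood at 347 CPM against 53.0, Alpl at 208 against 33.2 and Fbln2 at 624 against 172. Some basement membrane genes were lower in the 25, with Col4a1 at 676 against 1320 CPM, Col4a2 at 329.6 against 908 and Hspg2, the proteoglycan perlecan, at 208 against 550.3. The laminin gene Lamb2 was higher in the 25, at 260.2 against 99.5 CPM. Lama3 and Lama4 had too few UMIs to place, with log2 ratio intervals of -2.12 to 1.66 and -2.01 to 1.83.

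Cldn5 stood at 1544 CPM in the 25 and 325 CPM in the 62 (log2 ratio 2.24, interval 1.73 to 2.78). Most Cldn5 UMIs of the 25 came from the 9 barcodes with Mgp. Fbn1, a fibrillin of elastic fibres, had 10 UMIs in 8 of the 25 and 2 UMIs in 2 of the 62. Gkn3, a gastrokine gene, had 13 UMIs in 6 of the 25 and 0 in the 62 and in the lymphatic-marked set. Against a floor of 3 counts in the 62, its level of 225 CPM lies above 19.9 CPM. Iigp1, an interferon-induced GTPase, stood at 1336 against 564 CPM and was detected in 12 of the 25 and 29 of the 62. Cldn5, Fbn1, Gkn3 and Iigp1 were singled out after their values had been seen.

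Several capillary genes were lower in the 25 in the WT matrix, though not all were, and in the 62 they stood near the capillary class. That class had Gpihbp1 at 600.3, Plvap at 2598, Rgcc at 551 and Cldn5 at 340 CPM, against 736, 2367, 643 and 325 CPM in the 62. Gpihbp1 stood at 208, 335 and 283 CPM in the WT, LApc and LApcL matrices in the 25, and at 736, 757 and 858 CPM in the 62. Plvap stood at 1058, 746 and 1037 CPM in the 25, and at 2367, 2251 and 2421 CPM in the 62. Kdr, the main Vegf receptor, stood at 347 against 809 CPM and Cd300lg, a capillary surface receptor, at 399 against 842. Rbp7, a retinol-binding protein, stood at 139 against 524 CPM, and Col15a1, a basement membrane collagen, at 34.7 against 332. In the LApc matrix Cd300lg stood at 618 CPM (396 to 919) in the 25 and 806 CPM (641 to 1001) in the 62, and Rgcc at 515 against 610 CPM, so these differences were smaller there. Cd36 stood at 278 against 351 CPM in the WT matrix and Esm1 at 191 against 106, with both intervals of the log2 ratio spanning 0. Within the 25, UMIs of Plvap, Cd300lg, Gpihbp1 and Rgcc in the WT matrix came almost only from barcodes without Mgp. The 9 barcodes with Mgp thus had a part in the lower levels of those genes in the 25.

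Other arterial markers differed between the sets to unequal degrees. Sema3g stood at 468 CPM in the 25 and 239 CPM in the 62 (log2 ratio 0.97, interval 0.20 to 1.73). Mecom stood at 486 against 219 CPM, Ltbp4 at 1093 against 544 and Fbln5 at 347 against 113, so these too were higher in the 25. Cxcl12 stood at 1145 CPM in the 25 and 1452 CPM in the 62 (log2 ratio -0.34, interval -0.76 to 0.06), at 1081 against 1426 CPM in LApc, and at 849 (594 to 1175) against 1544 (1322 to 1794) CPM in LApcL. Sox17 stood at 243 against 338 CPM, Dll4 at 243 against 192, Efnb2 at 295 against 272 and Notch1 at 278 against 245, with every interval of the log2 ratio spanning 0. Ly6c1 stood at 2706 against 2593 CPM (interval -0.22 to 0.33). An interval that spans 0 does not show that levels were equal. For Sox17 it allowed from -1.44 to 0.40, and for Dll4 from -0.69 to 1.30.

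**Figure D4:**
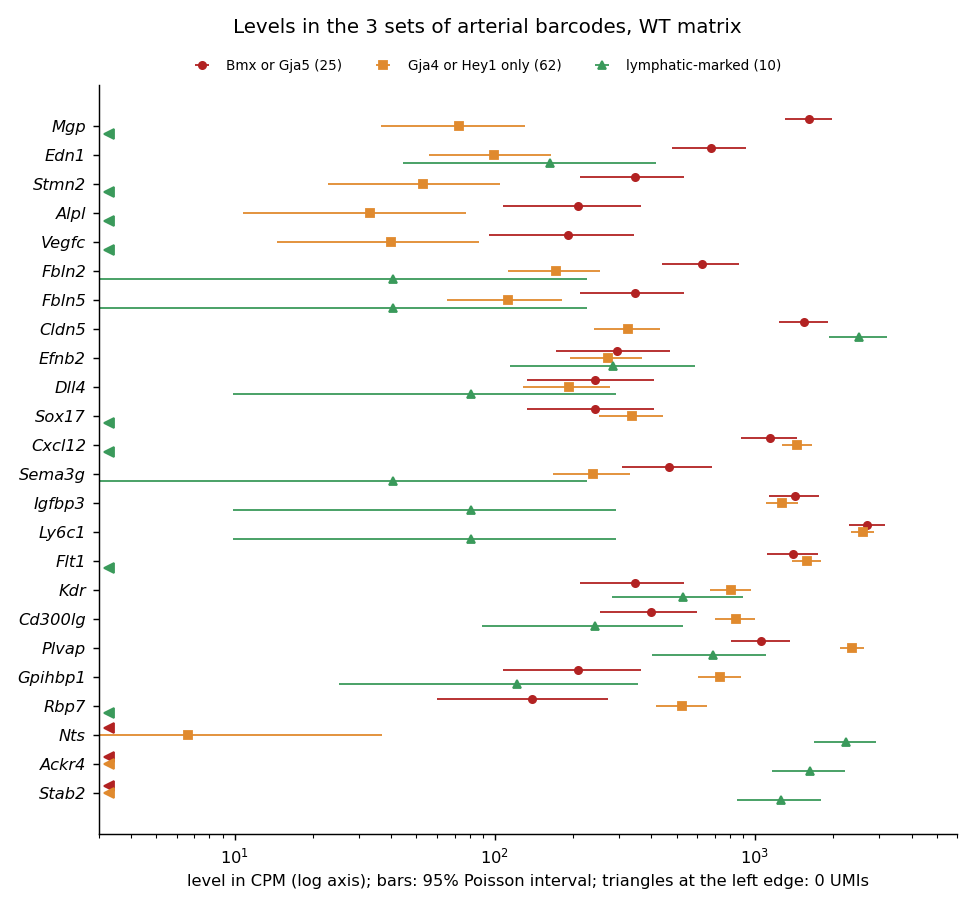
Levels in CPM on a log axis in the 25 barcodes with Bmx or Gja5 (red circles), the 62 with Gja4 or Hey1 only (orange squares) and the 10 lymphatic-marked barcodes (green triangles), with 95% Poisson bars and left-edge triangles for 0 UMIs. Mgp stood at 1613 and 72.9 CPM in the first and second sets, Plvap at 1058 and 2367 CPM, and Nts, Ackr4 and Stab2, which helped to pick the third set, were high in it.

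The same 97 barcodes were counted in the LApc and LApcL matrices, where the rule had not been applied. They held 157097 and 170961 UMIs there, 0.674 and 0.733 times the WT total. UMIs of the 4 arterial genes were 252 in WT, 115 in LApc and 121 in LApcL, 0.456 and 0.480 times the WT count. The WT count was the one the rule set a minimum on. In LApc 37 members still had at least 2 arterial UMIs, 32 had 1 and 28 had 0, and in LApcL these numbers were 37, 31 and 29. An arterial UMI was found in both other matrices for 50 members and in neither for 10.

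Applied to each matrix on its own, the rule took 97 by WT counts, 68 by LApc counts and 73 by LApcL counts. Of the WT members, 33 were also chosen in LApc (34.0% of 97 and 48.5% of 68) and 34 in LApcL (35.1% of 97 and 46.6% of 73). In all, 12 barcodes were chosen in all 3 matrices and 161 in at least 1. Most WT members were thus not chosen in LApc, and most were not chosen in LApcL.

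Levels of genes outside the rule were close between the matrices for some genes and not for others. Sema3g stood at 275, 248 and 246 CPM in the members in WT, LApc and LApcL, and at 29.7, 27.8 and 31.0 CPM in the others. Igfbp3 stood at 1184, 1190 and 994 CPM in the members. Vegfc stood at 72.9, 70.0 and 64.3 CPM, and Glycam1 at 60.1, 63.7 and 58.5 CPM. Alpl, with few UMIs, stood at 72.9, 25.5 and 29.2 CPM, Jag2 at 116, 70.0 and 105 CPM, and Depp1 at 159, 172 and 99.4 CPM. The median log2 ratio of the 22 arterial markers was 1.59, 1.58 and 1.26. Hey1, a rule gene, stood at 322, 197 and 175 CPM in the members, and Gja4 at 545, 382 and 333 CPM.

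**Figure D5:**
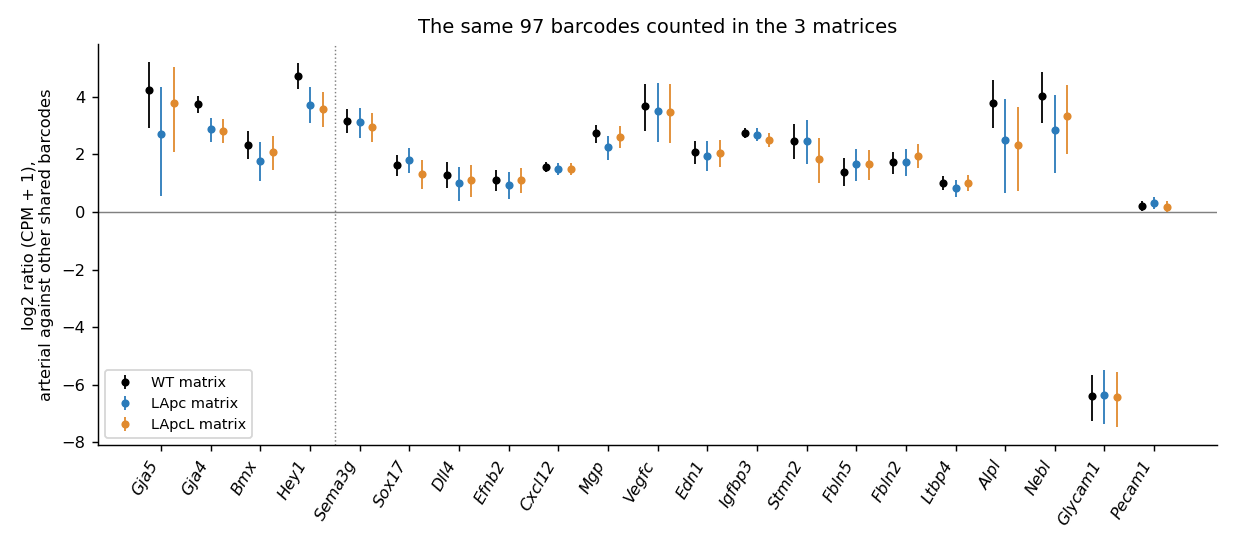
Log2 ratios of CPM + 1 of the 97 arterial barcodes against the other shared barcodes, counted in the WT (black), LApc (blue) and LApcL (orange) matrices, with 95% intervals for counting error. Genes left of the dotted line chose the members in WT, and Hey1 fell from 4.73 to 3.73 and 3.58 in the other matrices, whereas Sema3g stood at 3.17, 3.11 and 2.95.

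To compare shares of barcodes at 1 depth, each barcode was thinned to 1000 UMIs, which left out 5 members and 333 others. Sema3g was then detected in 21.7% of members, 5.32% of the capillary class and 0.472% of the lymphatic class. Cxcl12 was detected in 55.4%, 46.2% and 1.42%, and Igfbp3 in 44.6%, 24.8% and 0.472%. The source of the few UMIs in the lymphatic class, such as free RNA or doublets, was not tested. Without thinning Sema3g was detected in 35.1% of members, 9.91% of the capillary class and 0.684% of the lymphatic class.

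Epithelial, red blood cell, fibroblast and leukocyte genes were rare, whereas mural genes were found in more members. Epithelial markers had 5 UMIs in 3 members, red blood cell markers 0, fibroblast markers 4 and leukocyte markers 37, with Ptprc, the pan-leukocyte gene, at 0. The median log2 ratios of these lists against the others were -1.26, -4.87, -2.70 and -1.18, with 2 of 7, 0 of 4, 0 of 6 and 0 of 7 genes at least 2-fold higher and 4, 4, 6 and 5 at least 2-fold lower, beside 3.95% and 5.18% of all tested genes. Only 1 red blood cell gene and 1 leukocyte gene had a mean CPM of 50. In the other shared barcodes red blood cell markers stood at 207 CPM summed, with Hbb-bs, which shares reads with its near-copies, at 133 CPM. Mural cell markers had 84 UMIs in 19 members, 360 CPM summed against 312 in the others and 179 in the capillary class, and up to 31 UMIs in a single member, with 6 of 11 genes at least 2-fold higher than in the others and a median log2 ratio of 1.32 (1.33 against the capillary class). Intervals lay above 0 for 3 of the 11 and below 0 for 2. Only 3 mural genes had a mean CPM of 50, with 1 higher, 1 lower and a median of -0.71, beside 3.95% and 5.18%. Rgs5, a pericyte gene, had all of its 25 UMIs in 3 members, and Acta2, smooth muscle actin, had 5 in 1 member. The part of these barcodes in the levels above was not tested.

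Lipid genes were mixed, with 3 of 13 at least 2-fold higher and 4 at least 2-fold lower than in the others. With a mean CPM of at least 50 these were 2 and 2 of 8, beside 3.95% and 5.18% of all tested genes. Of 16 Vegf and Tie genes 2 were at least 2-fold higher and 6 at least 2-fold lower, with a median log2 ratio of -0.19. The CPM filter made these 1 and 2 of 8, beside 3.95% and 5.18%, and the median was 0.44. Flt1 stood at 1373 CPM against 764 in the others and 1534 in the capillary class. None of 12 junction genes was at least 2-fold higher and 1 was at least 2-fold lower, and by the CPM filter 0 of 9 were either, near the 3.95% and 5.18% of all tested genes. Genes of the list of immediate early and heat shock genes and of the interferon list were at least 2-fold higher for 2 of 16 and 3 of 14, with medians of 0.39 and 0.51, and for none against the capillary class. By the CPM filter these were 1 of 14 and 2 of 11, beside 3.95%. Intervals lay above 0 for 14 of the 16, and Fos, an immediate early factor, stood at 4260 CPM against 2911 in the others and 3256 in the capillary class. Hspa1a, which shares reads with its copy Hspa1b, stood at 142 CPM against 42.6 in the others, and Rsad2, an antiviral gene, at 262 against 79.8.

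Sex-linked transcripts were of 1 kind. In the WT matrix 40 members had a UMI of a Y-linked gene and none had Xist, the X inactivation transcript. In the LApc and LApcL matrices 29 and 30 of the same barcodes had a Y-linked UMI and none had Xist.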

How the data were processed

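The authors prepared droplet-based 10x 3′ libraries and deposited, per library, whole-number UMI counts per gene and barcode for 32285 genes. Per the file headers the counts were made with Cell Ranger 6.0.1, whereas the submitters' processing notes name 2.1.1, with mm10 as reference. The deposited counts carried no normalisation, and every deposited WT barcode had at least 500 UMIs. The WT, LApc and LApcL libraries held 87185429, 118867221 and 112057783 UMIs in 11411, 10706 and 12068 barcodes.

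UMIs were summed over barcodes and scaled to CPM. Poisson, conditional binomial and Clopper-Pearson intervals at 95% cover counting error only. The spread between mice cannot be measured with 1 library per group, so there is no test and no p-value. A gene at 0 was set at a floor of 3 counts. Members and the 25 gene lists (322 genes, all found) were chosen with earlier results of these data known. List genes needed at least 10 UMIs in both groups together. Named genes were the 8 of the rule, the highest and lowest of each list, and, by log2 ratio and without mitochondrial genes, the 15 highest and 10 lowest against the others and 10 of each against the capillary class. Not all of them are described. Other list genes were picked by their roles with their values known. Doublets were kept, and an alternative left out the highest Scrublet scores. The intervals were tested on simulated data. Python 3.11.15, scipy 1.17.1 and scanpy 1.11.5 were used.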

Additional observations from a re-analysis of the deposited data

Results flagged for a closer look

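Barcodes outside the shared set were not used above, and a few of them met the same counts. In the WT library 6 of 3072 such barcodes within the mitochondrial limit did, which is above 0 and below the share among shared barcodes. They held 539 to 765 UMIs each, 2 of them were also in 1 other library, and 4 had a UMI of Pecam1 or Cdh5. In the LApc library 1 of 3616 met the counts, with 215425 UMIs in all and 167 of the epithelial gene Epcam, and in the LApcL library 0 of 4725 did. The LApc barcode had 0 UMIs of Pecam1 and Cdh5.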

How the results depend on the processing

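There were 19 alternatives, 5 of them added after seeing the data. The median log2 ratios of the arterial, capillary and venous lists ranged over 1.22 to 1.75, 0.001 to 0.557 and -2.34 to -1.40. The lymphatic median (main -1.77) was -5.59 with 2 different arterial genes required, -5.32 without the lymphatic-marked members and 0.41 against barcodes without Prox1 or Mmrn1. Those members were picked by genes of that list, so the fall without them follows from the choice. The number of members (main 97) was 288 with a minimum of 1 UMI, 43 with 3 and 43 with 2 different genes. Genes at least 2-fold higher (main 125) numbered 255 with a minimum of 3 UMIs, 270 with 2 different genes, 233 after thinning, 61 at a mean CPM of 100 and 1432 with no filter. Genes at least 2-fold lower (main 164) numbered 248 with 2 different genes, 87 against non-lymphatic barcodes, 74 at a mean CPM of 100 and 3619 with no filter. Of 731 values of single genes 723 kept their sign and 119 moved beyond their counting interval. The 8 that changed sign were of Unc5b, Eln, Cxcr4 and Tspan8. Glycam1 went from -6.41 to -1.96 for members chosen in LApcL, and Ccl21a from -6.76 to -3.10 for members chosen in LApc. Cxcr4 stood at -0.051 for members chosen in the LApc matrix and Tspan8 at -2.66 in LApcL counts, and the cause was not tested. Leaving out a replicate could not be run with 1 library per group. No paired analysis was possible because each group has 1 library and all comparisons lie within one matrix.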
